A study of Mus musculus with 8 samples.

Results

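IGHV1-72 is a heavy-chain variable gene of the mouse, and its cells were taken as every barcode with exactly 1 heavy and 1 light contig whose heavy contig was assigned to that gene. This gave 1187 of 40603 such paired cells, of which 815 of 21896 were Dtx1 knockout (KO) and 372 of 18707 wild type (WT). The cells were splenic germinal-centre B cells, enriched with peanut agglutinin beads and sorted on day 10 after mice were immunized, and their receptors were sequenced by a droplet method. The 8 libraries comprised 4 from Dtx1-/- (KO) and 4 from Dtx1+/+ (WT) mice, and Dtx1 (Deltex-1) encodes a ubiquitin ligase linked to Notch signalling. The series title names the control of germinal-centre B-cell homeostasis by Dtx1 as its subject. Neither the immunogen and the sort gates nor the strain, age and number of the mice, nor the cells in which Dtx1 was lost, were stated in the labels. Receptor contigs do not hold Dtx1 transcripts, so the knockout itself was not checked.

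B cells build a heavy chain from V, D and J segments and pair it with a kappa or lambda light chain, and in germinal centres the V segments acquire mutations while the constant gene may switch from IgM to IgG, IgA or IgE. IGHV1-72, known in the literature as the V186.2 gene, is the textbook heavy gene of the C57BL/6 response to the hapten nitrophenyl. In that response it is joined to IGHJ2 and paired with lambda 1, its CDR3 often holds a tyrosine-rich stretch, and a change of tryptophan to leucine at residue 33 (W33L) raises the affinity. Which of these features the IGHV1-72 cells of the 2 genotypes carried is described here.

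The 8 libraries held 4585 to 5712 paired cells each and 754954 to 1155339 unique molecular identifiers (UMIs). IGHV1-72 cells numbered 202, 208, 222 and 183 in the KO libraries and 105, 88, 86 and 93 in the WT libraries. The heavy contig of an IGHV1-72 cell had a median of 30 to 35 UMIs in KO and 17 to 21 in WT libraries, against 38 to 41 and 22 to 25.5 in the other cells of the same libraries. Of the 88 KO clones with at least 2 cells, 81 were found in 2 or more libraries, as were 45 of 49 in WT. Libraries of a genotype thus shared their clones, and all SDs and p-values below describe 2 pools of cells and not the spread between mice.

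The gene lies on chromosome 12 (115757984 to 115758277 in RefSeq's annotation of GRCm38.p6, which is mm10), where it is annotated as a V segment. The most common sequence over its clones from framework 1 to framework 3, 285 bases and 95 residues long, was the same in both pools and is taken here as the germline. It is printed because every mutation below is read against it, and the capitals mark the tryptophan codon of residue 33, counted from 1 at the start of framework 1.
IGHV1-72: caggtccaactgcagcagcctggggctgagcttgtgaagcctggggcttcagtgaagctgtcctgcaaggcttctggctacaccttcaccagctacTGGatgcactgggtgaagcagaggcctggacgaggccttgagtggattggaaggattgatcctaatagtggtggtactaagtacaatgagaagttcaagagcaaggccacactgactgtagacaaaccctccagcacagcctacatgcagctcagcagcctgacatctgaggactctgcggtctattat
The nearest other germlines were IGHV1-53 and IGHV1-64, each 12 bases away, and IGHV1-55, 16 bases away. IGHV1-53 differs from it by 8 residues (A9T, R43Q, R50N, D52N, N54S, S55N, K59N and P75S), written with the IGHV1-72 residue first. Of the 1187 V sequences, 1 was nearer to another germline, and that WT cell is described with residue 33 below.

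IGHV1-72 made up a larger share of the repertoire in KO than in WT germinal-centre cells. It held 3.64, 3.64, 3.97 and 3.63% of paired cells in the KO libraries, against 2.17, 1.89, 1.86 and 2.03% in the WT libraries. The groups did not overlap, with means of 3.72 ± 0.164% in KO and 1.99 ± 0.142% in WT (SD, n = 4 libraries each). The log2 fold change over all IGHV genes was 0.90 ± 0.087 (SE; edgeR's quasi-likelihood test, adjusted p = 4.03e-12), and the exact two-sided permutation test of the share gave p = 0.0286, the smallest that 4 against 4 libraries allow. This is a common result, since 25 of 69 tested IGHV genes (36.2%) were called higher in KO, and IGHV1-72 stood at rank 9 by fold change.

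Part of the difference lay in clone size. When a clone found in a library was counted 1 time there, IGHV1-72 made up 2.91, 2.74, 2.90 and 3.04% of clones in KO, against 2.61, 1.98, 2.07 and 2.59% in WT. The groups still did not overlap, but the log2 fold change was 0.33 (edgeR adjusted p = 0.0141). With clones defined by an identical heavy CDR3 it was 0.56. A clone spread over libraries still enters each of them in these counts. Counted once per pool, IGHV1-72 made up 2.60% of clones in KO and 2.38% in WT, without a test. With an identical CDR3 these shares were 2.96 and 2.21%. By cells, scaling with TMM factors gave a log2 fold change of 0.72 and moved the median of all genes from 0.16 to -0.03. Such factors shift all genes nearly alike, so the distance of IGHV1-72 above that median, 0.74, could hardly change and is no separate check.

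**Figure D1:**
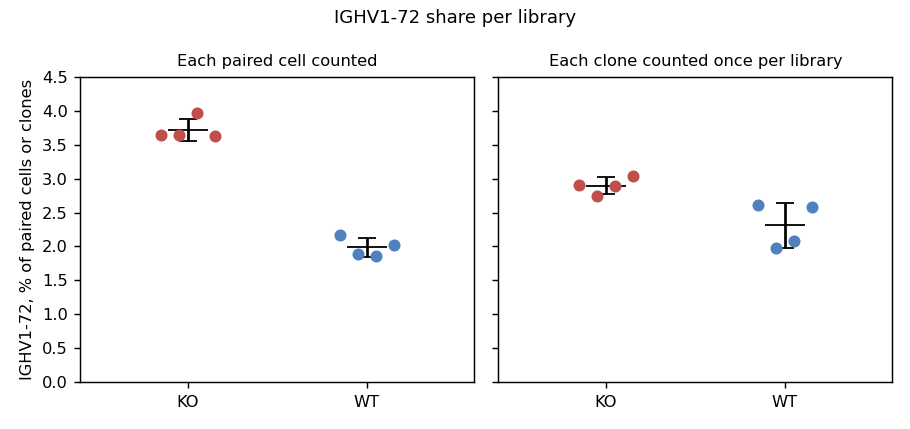
IGHV1-72 as a percent of paired cells (left) and of clones counted once per library (right), with 1 point per library, KO before WT, and bars for the mean ± SD of 4 libraries. KO libraries lie at 3.63 to 3.97% by cells, all above the WT libraries at 1.86 to 2.17%, and the gap is smaller by clones.

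By mean share IGHV1-72 was the 7th of 97 IGHV genes in KO and the 15th in WT. Its neighbours in KO were IGHV1-26 (3.74 ± 0.414%) and IGHV1-55 (3.60 ± 0.202%), neither of which differed from it beyond their SD, and in WT they were IGHV1-18 (2.01 ± 0.146%) and IGHV2-2 (1.96 ± 0.0685%), likewise within the SD. Its closest relatives by sequence stood at 3.94 ± 0.226% in KO and 2.88 ± 0.192% in WT for IGHV1-53, 3.05 ± 0.183% and 2.76 ± 0.442% for IGHV1-64, and 3.60 ± 0.202% and 6.44 ± 0.282% for IGHV1-55 (SD, n = 4 each, KO before WT). Of these 3 genes, IGHV1-53 and IGHV1-64 thus had a higher mean in KO and IGHV1-55 a lower one. Of the other 48 genes of the IGHV1 family, 38 were tested, of which 13 were called higher and 10 lower in KO and 15 were not called (edgeR), with a median log2 fold change of 0.15 beside 0.16 over all 69 genes. The genes whose share followed that of IGHV1-72 most closely over the 8 libraries, out of 68 compared by the mean absolute difference of centred log2 shares, were IGHV1-7 (0.110), IGHV7-3 (0.117) and IGHV1-59 (0.140).

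The light-chain partners of IGHV1-72 also differed between the genotypes. IGKV4-68, a kappa V gene on chromosome 6, was the clearest case. It was the partner in 13.9, 13.9, 11.3 and 13.7% of IGHV1-72 cells in the KO libraries, against 0, 0, 0 and 2.15% in the WT libraries. That is 107 KO cells in 23 clones and 2 WT cells in 1 clone, and the log2 fold change was 4.41 ± 0.59 (SE; edgeR adjusted p = 1.82e-10). With only 2 WT cells the ratio of the pooled shares was 24.4, with an exact 95% interval of 6.60 to 204.2 (counting error only). That interval treats each cell as a separate draw, though the 107 KO cells fell into 23 clones. It does not cover the spread between clones or mice. Counting each clone once gave a log2 fold change of 4.46 (edgeR adjusted p = 3.85e-08). In the cells with other heavy genes IGKV4-68 stood at nearly the same level in both genotypes, at 0.930% in KO and 0.933% in WT. Seen from the light chain, 107 of 303 KO cells with IGKV4-68 (35.3%) carried IGHV1-72, which was its most frequent heavy partner, against 2 of 173 in WT (1.16%), where IGHV1-72 ranked 14th.

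IGKV10-96 was the most frequent partner in KO. It was found in 10.9, 15.4, 14.9 and 18.6% of IGHV1-72 cells in KO, against 4.76, 7.95, 9.30 and 7.53% in WT, with no overlap and a log2 fold change of 1.02 ± 0.33 (SE; edgeR adjusted p = 0.00521). This call rested on the largest KO clone, 86 cells in which the clone rule (described below) joined 19 distinct CDR3 nucleotide sequences. Without the largest clone of each pool the log2 fold change was -0.69 (edgeR adjusted p = 0.0882), and with each clone counted once it was -0.41. With clones of identical CDR3 the sign did not change, but the shares lay close, at 36 of 354 clones in KO and 19 of 213 in WT. IGKV8-30 held 10.4, 10.6, 7.66 and 10.9% of IGHV1-72 cells in KO, against 1.90, 2.27, 6.98 and 3.23% in WT, and the log2 fold change was 1.47 ± 0.39 (SE; edgeR adjusted p = 6.28e-04). Here 68 of the 80 KO cells were 1 clone, and counting clones once gave -0.19. In cells with other heavy genes IGKV10-96 stood at 4.16% in KO and 3.65% in WT, and IGKV8-30 at 2.73% and 2.10%.

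Among the named partners, IGKV12-38 and IGKV3-2 were lower in KO. Both were also lower in KO in cells with other heavy genes, without a test. There IGKV12-38 stood at 0.436% in KO and 0.944% in WT, and IGKV3-2 at 0.825% and 1.25%. IGKV12-38 held 7.43, 5.77, 4.95 and 2.73% in KO, against 14.3, 11.4, 12.8 and 9.68% in WT, again without overlap, and the log2 fold change was -1.18 ± 0.31 (SE; edgeR adjusted p = 6.28e-04). Counted once per clone the log2 fold change was -0.72 and the call was lost (edgeR adjusted p = 0.345). IGKV3-2 held 0.495, 0.481, 0.901 and 0.546% in KO, against 3.81, 2.27, 2.33 and 7.53% in WT, and its log2 fold change of -2.56 ± 0.68 was still called when clones were counted once (-1.88; edgeR adjusted p = 0.0278). IGKV6-15, IGKV3-12, IGKV6-17 and IGKV12-44 were not called, with KO and WT means of 5.54 and 6.48%, 4.53 and 3.58%, 2.90 and 5.03%, and 1.08 and 2.54%. IGKV17-127 (1.01% in KO and 1.34% in WT) had too few cells to be tested.

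In all, 14 of the 21 light V genes with at least 16 IGHV1-72 cells were called between KO and WT (66.7%), 8 higher and 6 lower in KO. Such calls were common, since 41 of 69 IGHV genes were called in either direction by the same kind of test. Light V genes of other cells were not tested between KO and WT. Counting clones once left 10 partners of IGHV1-72 to test, of which 2 were called, IGKV4-68 and IGKV3-2. Of the 14 genes called by cells, 5 could be tested by clones and 9 had too few clones for it. The filter of 16 cells took both pools together, so a gene could pass through the pool where it was high. Examples are IGKV4-63 (24 KO and 0 WT cells), IGKV6-20 (17 and 0) and IGKV10-94 (3 and 21, with 20 WT cells in 1 clone). For such genes a difference between the pools was partly built in by the filter.

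**Figure D2:**
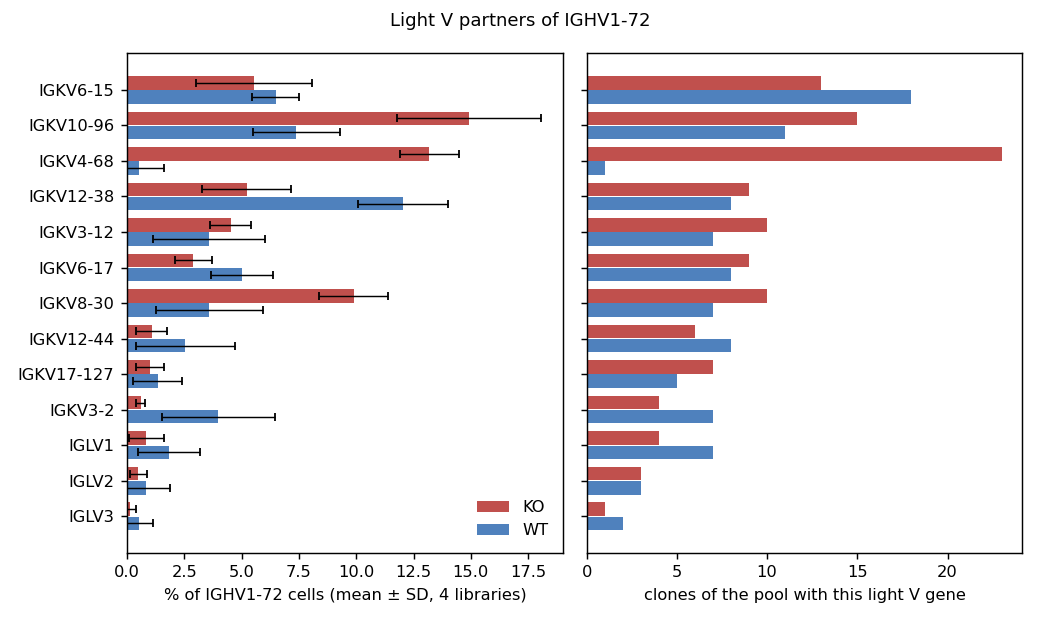
Light V partners of IGHV1-72, as the percent of its cells (left, mean ± SD of 4 libraries) and as the number of clones of the pool (right), with KO bars above WT bars for the 10 kappa or lambda genes with most clones and the remaining lambda genes. IGKV4-68 stands at 13.2% and 23 clones in KO, against 0.538% and 1 clone in WT.

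Compared with cells of the same libraries that used other heavy genes, IGHV1-72 cells had fewer light V genes called higher than lower. Of 82 light V genes tested within libraries, 7 were called higher (8.54%) and 24 lower (29.3%) in IGHV1-72 cells. The gain was greatest for IGKV12-38, which held 5.22 ± 1.95% of IGHV1-72 cells in KO and 12.03 ± 1.97% in WT (SD, n = 4 each), against 0.436% of other cells in KO and 0.944% in WT, which gave a log2 fold change of 3.60 ± 0.34 (SE; edgeR adjusted p = 2.17e-12). Counted once per clone it was 3.39, over 9 KO and 8 WT clones. Seen from the light chain, IGKV12-38 was paired with IGHV1-18 most often, in 65 of 135 KO cells (48.1%) and 136 of 218 WT cells (62.4%). IGHV1-72 was at rank 2 among its heavy partners in both genotypes (31.9% in KO and 20.6% in WT).

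IGKV4-68 was also called, with a log2 fold change of 2.65 ± 0.48 (SE; edgeR adjusted p = 2.98e-05), but it exceeded its level in other cells in KO alone (13.1% against 0.930%) and was below it in WT (0.538% against 0.933%), and DESeq2 gave 1.57 without a call. IGKV4-63 (2.76; edgeR adjusted p = 3.87e-04), named after its values were seen, had 24 KO cells, 23 of them in 1 clone, and 0 WT cells, and it was not called by clones (adjusted p = 0.117). IGKV10-96 (1.47), IGKV8-30 (1.42), IGKV3-12 (1.11) and IGKV6-15 (0.80) were called by edgeR as well. Counting clones once kept the calls of IGKV10-96 (0.67), IGKV3-12 (1.40) and IGKV6-15 (1.17) and ended that of IGKV8-30 (0.56), and without the largest clone of each pool IGKV10-96 was not called (0.62). DESeq2 called neither IGKV8-30 (0.90) nor IGKV3-12 (0.63) nor IGKV6-15 (0.31). The calls of IGKV3-12 and IGKV6-15 were each lost when certain single libraries were left out: KO replicates 1, 3 or 4 or WT replicate 4 for IGKV3-12, and KO replicates 2 or 3 or WT replicates 2, 3 or 4 for IGKV6-15.

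Lambda chains, the partners in the textbook nitrophenyl response, were rarer in IGHV1-72 cells than in other cells. They were found in 0.990, 0.481, 2.70 and 1.64% of IGHV1-72 cells in the KO libraries, against 2.86, 3.41, 1.16 and 5.38% in the WT libraries, and the genotypes overlapped (exact permutation p = 0.114; adjusted p = 0.212 over 13 measures). In the other cells of these libraries lambda stood at 3.13 ± 0.0925% in KO and 6.07 ± 0.188% in WT (SD, n = 4 each). Within libraries the difference between IGHV1-72 and other cells averaged -2.27 percentage points and was negative in 8 of 8 libraries (exact sign-flip permutation p = 0.0078; adjusted p = 0.0156 over 6 measures). With each clone counted once the difference was -1.37 points and no longer called (adjusted p = 0.141, exact).

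The lambda cells numbered 12 in each genotype, in 8 KO and 12 WT clones. IGLV1, the lambda 1 V gene, was used by 7 cells in KO and 7 in WT, IGLV2 by 4 and 3, and IGLV3 by 1 and 2. Against other cells IGLV1 was called lower (log2 fold change -1.34; edgeR adjusted p = 0.0213), a call lost on counting clones once and without KO replicate 2, KO replicate 4 or WT replicate 3, while IGLV2 (-0.39) and IGLV3 (-0.70) were not called. The combination of IGHJ2 with IGLV1 occurred in 1 KO cell and 2 WT cells, and none of the 24 lambda cells had the residues YYGS in its CDR3. CDR3s of lambda cells were short, with a median of 9 residues in KO and 10 in WT, against 15 and 13 in kappa cells. The junctions of the largest KO lambda clone (4 cells, IGHJ1 with IGLV1) and of the IGHJ2 and IGLV1 cells are printed, the first for its size and the others for the J and light genes of the textbook receptor; capitals mark the bases between the conserved ends.
KO, IGHJ1: tgtgcaagaCACTATGGGGTCtgg
KO, IGHJ2: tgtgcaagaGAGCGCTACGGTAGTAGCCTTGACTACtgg
WT, IGHJ2: tgtgcaagaGGGTTACTACTAGGCTACtgg
WT, IGHJ2: tgtgcaagaGGTAGTAGCTACGACTACtgg
None of the 4 junctions carried a V mutation beside it. They translate to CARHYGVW, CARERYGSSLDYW, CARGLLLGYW and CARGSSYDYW.

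IGHJ2 was the most used heavy J segment of IGHV1-72 cells in both genotypes, and its share exceeded that in other cells. IGHJ2 was used by 39.6, 40.4, 40.5 and 38.8% of IGHV1-72 cells in KO and 45.7, 45.5, 38.4 and 34.4% in WT, which overlapped (means 39.8 ± 0.802% and 41.0 ± 5.55%; exact permutation p = 0.8). Other cells used it in 29.8 ± 0.219% in KO and 30.1 ± 0.527% in WT, and the within-library excess of 10.5 percentage points was positive in 8 of 8 libraries (exact sign-flip permutation p = 0.0078; adjusted p = 0.0156). Counting each clone once gave 11.1 points. IGHJ1 stood at 27.6 ± 1.65% in KO and 22.1 ± 4.41% in WT, IGHJ4 at 22.02 ± 0.936% and 18.3 ± 3.16%, and IGHJ3 at 10.6 ± 1.83% and 18.6 ± 2.02% (SD, n = 4 each), without a test of their own. In the other cells IGHJ1 stood at 18.2% in KO and 15.8% in WT, IGHJ4 at 27.1% and 25.5%, and IGHJ3 at 25.0% and 28.6% over the pools. By cells IGHJ1 was thus also above its level in other cells, and IGHJ3 and IGHJ4 were below theirs. In KO the largest IGHJ1 clones held 86 and 68 of its 224 cells. By clones, IGHJ1 had 46 of 269 in KO and 31 of 181 in WT. IGHJ4 had 81 and 44 clones, and IGHJ3 37 and 30. Other cells were not counted by clones for these segments.

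The D segment was not assigned in 711 of 815 KO and 293 of 372 WT cells, so its shares are minimum values. IGHD1-1, the D segment named DFL16.1 in the nitrophenyl literature, was assigned in 6.44, 7.69, 7.21 and 6.56% of IGHV1-72 cells in KO, against 1.90, 3.41, 2.33 and 2.15% in WT. The groups did not overlap, at means of 6.97 ± 0.587% and 2.45 ± 0.664% (exact permutation p = 0.0286; adjusted p = 0.0929 over 13 measures, not called). Without the largest clone of each pool the difference of 4.53 points became 1.43 points. Other cells had IGHD1-1 assigned more often, in 8.83% in KO and 7.95% in WT over the pools, without a test. The YYGS motif that this segment can encode stood at 15.8 ± 1.52% in KO and 14.4 ± 2.71% in WT (SD, n = 4 each), which overlapped (exact permutation p = 0.486). It stood at 15.1% of other KO cells and 15.3% of other WT cells.

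The mean heavy CDR3 length, in residues with both conserved ends, was 14.1, 14.2, 14.2 and 14.1 in KO and 13.6, 14.0, 13.9 and 14.2 in WT (exact permutation p = 0.0857; adjusted p = 0.186). Other cells had 14.5 ± 0.0321 in KO and 14.3 ± 0.0191 in WT. IGHV1-72 CDR3s were shorter than those of other cells by 0.358 residues on average, in 8 of 8 libraries (exact sign-flip permutation p = 0.0078; adjusted p = 0.0156). This held for the mean and not for the median in KO, which over the pool was 15 residues in IGHV1-72 cells and 14 in other cells, while in WT the medians were 13 and 14.

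The IGHV1-72 cells fell into 269 clones in KO and 181 in WT, where a clone shares the heavy V and J and light V and J genes and the CDR3 length, with a nucleotide identity of at least 0.85 in the heavy CDR3. Cells in clones of 2 or more made up 634 of 815 in KO (77.8%) and 240 of 372 in WT (64.5%). Those clones were defined over the pool. With clones defined within each library and an equal 86 cells per library, the share was 49.6 ± 3.67% in KO and 44.6 ± 4.98% in WT (SD, n = 4 each; exact permutation p = 0.171; adjusted p = 0.248). The largest clone held 10.6% of the gene's cells in KO and 6.99% in WT, and the 5 largest together 30.1 and 23.4%.

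The 5 largest KO clones had 86 cells (IGHJ1 with IGKV10-96), 68 (IGHJ1 with IGKV8-30), 48 (IGHJ2 with IGKV4-68), 23 (IGHJ2 with IGKV4-63) and 20 (IGHJ2 with IGKV3-12). The 5 largest WT clones had 26 cells (IGHJ3 with IGKV9-120), 20 (IGHJ2 with IGKV10-94), 19 (IGHJ2 with IGKV12-38), 12 (IGHJ3 with IGKV6-17) and 10 (IGHJ1 with IGKV19-93). These 10 clones were of different kinds. The KO clone of 68 cells and the WT clone of 26 cells each had 1 CDR3 nucleotide sequence and no V mutation in any cell.
KO, 68 cells: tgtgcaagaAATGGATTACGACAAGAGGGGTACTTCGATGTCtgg
WT, 26 cells: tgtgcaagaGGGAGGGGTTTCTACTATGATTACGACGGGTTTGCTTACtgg
The KO clones of 86 and 48 cells, in contrast, held 19 and 25 distinct CDR3 nucleotide sequences, and 82 of the 86 cells and 33 of the 48 had no V mutation. The identity rule therefore joined cells whose junctions differed, and the alternative with an identical CDR3 gave 354 clones in KO and 213 in WT.

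**Figure D3:**
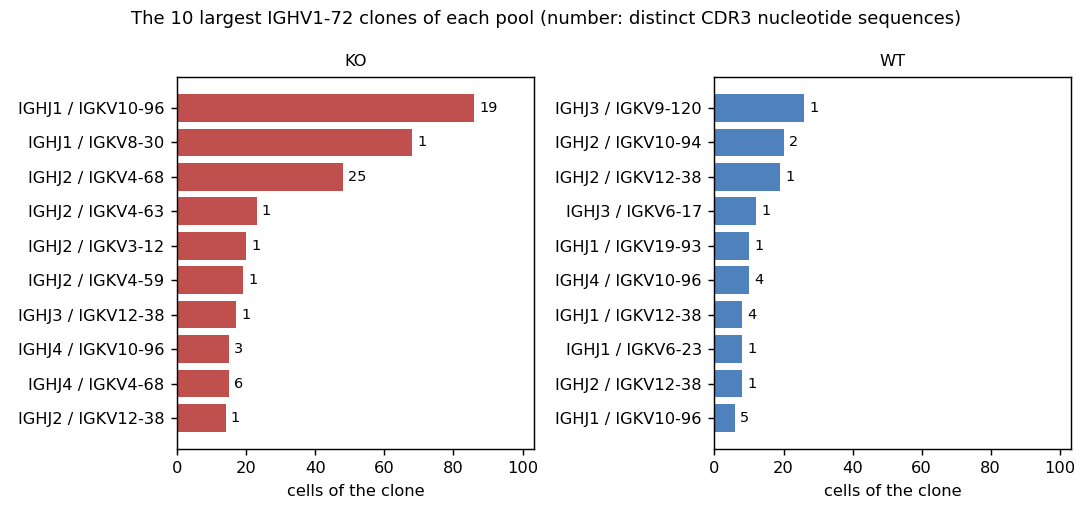
Cells in the 10 largest IGHV1-72 clones of the KO pool (left) and the WT pool (right), named by heavy J and light V gene; the number beside a bar counts the distinct heavy CDR3 nucleotide sequences in the clone. The KO clones with IGKV10-96 and IGKV4-68 hold 19 and 25 sequences, while 5 of the first 7 KO bars hold 1.

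Cells of these 2 KO clones belonged to wider groups of like junctions, which were chosen after their values were seen and are described without a test. Cells with IGHJ1, IGKV10-96 and a CDR3 of 16 residues numbered 89 in KO, with 21 distinct nucleotide junctions, and 8 in WT, with 7. In KO 84 of the 89 (94.4%) had no V mutation, and these unmutated cells alone held 18 distinct junctions. All 89 were IgM. The KO libraries held 17, 23, 24 and 25 of them and the WT libraries 1, 1, 2 and 4. Some of the commonest junctions show how they differ; capitals mark bases that differ from the first line, which is the commonest KO junction.
KO, 31 cells: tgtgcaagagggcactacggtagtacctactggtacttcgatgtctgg
KO, 12 cells: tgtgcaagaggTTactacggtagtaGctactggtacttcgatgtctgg
KO, 7 cells: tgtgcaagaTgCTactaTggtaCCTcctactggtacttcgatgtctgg
KO, 4 cells: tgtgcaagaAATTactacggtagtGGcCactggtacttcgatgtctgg
WT, 2 cells: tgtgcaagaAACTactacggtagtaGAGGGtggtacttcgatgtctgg
Over the 21 KO junctions CDR3 residues 4 and 10 varied most, with 5 and 6 kinds, residues 6, 7 and 8 between them had 2 kinds each, and the last 6 residues were the same in all 21.

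Cells with IGHJ2, IGKV4-68 and a CDR3 of 11 residues numbered 70 in KO, with 36 distinct nucleotide junctions, and 2 in WT, with 2. In KO 51 of the 70 (72.9%) had no V mutation, with 24 distinct junctions, and 2 cells were switched. The KO libraries held 18, 20, 15 and 17 of them, and both WT cells came from 1 library. The 2 WT junctions encode the same residues, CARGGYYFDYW, as the commonest KO junction.
KO, 11 cells: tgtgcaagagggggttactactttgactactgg
KO, 6 cells: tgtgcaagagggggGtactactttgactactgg
KO, 4 cells: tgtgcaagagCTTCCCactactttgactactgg
WT, 1 cell: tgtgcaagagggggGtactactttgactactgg
WT, 1 cell: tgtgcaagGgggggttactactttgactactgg
The KO junction of 6 cells and the upper WT junction are identical at every base. Residues 5 and 6 each had 10 kinds over 36 KO junctions, and residues 1, 3, 9 and 11 had 1.

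Over both pools 6 of 514 distinct CDR3 amino acid sequences and 4 of 548 nucleotide sequences of IGHV1-72 cells were found in KO and in WT. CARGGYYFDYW was carried by 23 KO cells and 2 WT cells in 7 nucleotide forms, all with IGKV4-68. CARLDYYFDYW was carried by 13 KO cells and 3 WT cells in 3 forms, all with IGKV6-15, and no form was shared between the pools. The exception in light gene was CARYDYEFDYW, where the KO cell was paired with IGLV3 and the WT cell with IGKV6-15.

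Most IGHV1-72 cells were unswitched. IgM was the constant region of 773 of 815 KO cells and 342 of 372 WT cells, and IgD of 1 and 2. Among switched cells IGHG1 led in KO, with 27 cells in 17 clones, followed by IGHG2B with 10 and IGHG3 with 3. In WT IGHG2B led with 12 cells in 6 clones, followed by IGHG3 with 7, IGHG1 with 6 cells in 6 clones, and IGHA and IGHG2C with 1 each. No IGHE cell was found among the 1187, which allows a share of up to 0.253% (counting error only), and IGHA and IGHG2C were not found among the 815 KO cells, which allows up to 0.368%.

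The switched share was 7.43, 3.85, 4.07 and 4.37% in the KO libraries, against 7.69, 6.82, 4.65 and 9.68% in the WT libraries. The groups overlapped (exact permutation p = 0.143; adjusted p = 0.232). Other cells were switched in 6.74 ± 0.410% in KO and 7.44 ± 0.501% in WT (SD, n = 4 each), and the difference between IGHV1-72 and other cells averaged -1.02 points, which was not called (exact sign-flip permutation p = 0.188). The IGHG1 share was 5.94, 2.40, 2.26 and 2.73% in KO, against 1.92, 2.27, 0 and 2.15% in WT, and KO replicate 3 overlapped with WT replicate 2 (exact permutation p = 0.0571; adjusted p = 0.149). In other cells IGHG1 made up 5.33% in KO and 3.39% in WT over the pools.

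Switched cells were more often mutated than IgM cells in both pools. In KO 8 of 40 switched cells and in WT 4 of 27 had no V mutation, against 85.0% and 67.3% of IgM cells. They averaged 3.25 V mutations in KO and 3.78 in WT, against 0.439 and 1.36 in IgM cells, without a test. All 12 lambda cells in KO and 11 of 12 in WT were IgM.

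IGHV1-72 cells of KO mice carried fewer V mutations in every library than those of WT mice, though the difference was not called once the 13 measures were adjusted for. The mean mutation frequency was 0.231, 0.226, 0.161 and 0.197% of V bases in the KO libraries, against 0.591, 0.586, 0.326 and 0.615% in the WT libraries. The groups did not overlap, at means of 0.204 ± 0.0321% and 0.530 ± 0.136% (exact permutation p = 0.0286, the smallest possible; adjusted p = 0.0929). Cells without any V mutation made up 78.7, 80.3, 83.8 and 84.2% in KO, against 60.95, 62.5, 72.1 and 60.2% in WT, again without overlap (exact permutation p = 0.0286; adjusted p = 0.0929). With 4 libraries a side, adjustment over 13 measures can pass 0.05 only if most of them reach the smallest p.

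The same held within IgM cells, at 0.153 ± 0.0279% in KO and 0.475 ± 0.118% in WT (SD, n = 4 each; exact permutation p = 0.0286; adjusted p = 0.0929). With each clone counted once the overall difference was -0.36 percentage points, and among cells of like depth, with 20 to 40 heavy UMIs, it was -0.38 points. Other cells differed in the same direction, at 0.224 ± 0.0169% in KO and 0.429 ± 0.0124% in WT, and the difference of the differences, -0.120 points, missed the threshold (exact permutation p = 0.143; adjusted p = 0.286). Mutated cells numbered 149 in KO and 135 in WT, with a median of 3 and 4 mutations. At least 5 mutations were carried by 33 KO cells (4.05%) and 52 WT cells (14.0%).

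Cells that are unmutated and IgM or IgD, which a naive B cell would also be, made up 77.2 to 84.2% of IGHV1-72 cells in the KO libraries and 59.1 to 70.9% in the WT libraries. The figures were 75.9 to 77.6% and 63.4 to 65.8% in the other cells. IgD itself was listed for 1 KO cell and 2 WT cells. IGHV11-2, IGHV12-3 and IGHV7-1, heavy genes associated with B-1 cells, held 1.12 to 1.66% of paired cells in KO and 0.537 to 0.654% in WT. The part of naive or B-1 cells in the IGHV1-72 results was not tested.

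**Figure D4:**
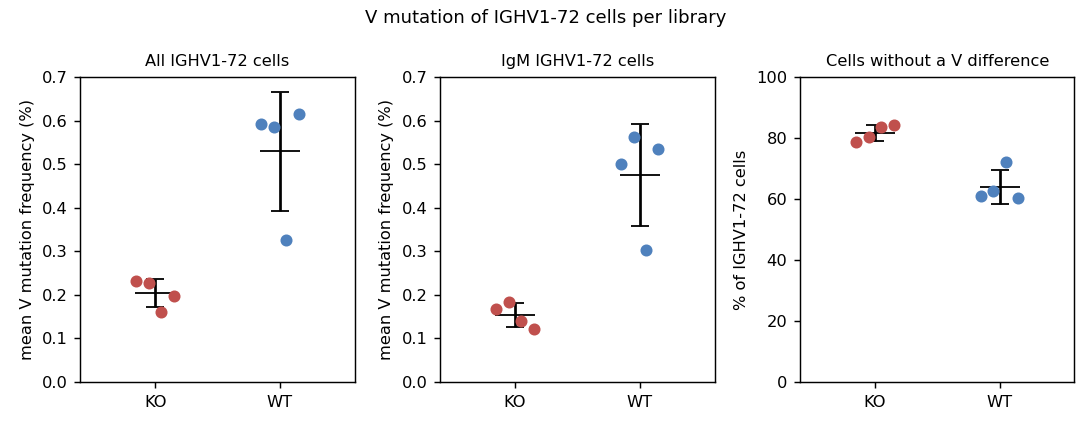
Mean V mutation frequency of all and of IgM IGHV1-72 cells, and the percent of IGHV1-72 cells with no V mutation, with 1 point per library, KO before WT, and bars for the mean ± SD of 4 libraries. KO libraries lie below the WT libraries in mutation frequency and above them in the unmutated share, and WT replicate 3 lies nearest to KO.

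The replacement that marks affinity maturation to nitrophenyl, W33L, was found in 0 of 1187 cells, which allows a share of up to 0.253% (0 of 815 in KO, up to 0.368%, and 0 of 372 in WT, up to 0.806%; counting error only). These limits count every cell as a separate draw. Only 149 KO cells in 94 clones and 135 WT cells in 93 clones carried any V mutation, so the limits among mutated cells are wider. Residue 33 was replaced by another residue in 0 KO cells and in 2 WT cells, both in replicate 4, both IgM and paired with IGKV17-127. One of them carried W33T in a V sequence with 29 base differences and was the cell nearer to the germline of IGHV1-4. The other carried W33R. K59R, a second change described in nitrophenyl-specific cells, was found in 1 cell, a KO cell.

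Other residues were replaced far more often. Residue 31, a serine in CDR1, was replaced in 23 KO clones (8.55%) and 29 WT clones (16.02%). Residue 66, a serine in framework 3, followed with 18 KO clones (6.69%) and 21 WT clones (11.6%), and residue 57, a glycine in CDR2, with 15 (5.58%) and 19 (10.5%). The next were residue 58 (11 and 16 clones in KO and WT), residue 34 (12 and 9), residue 63 (11 and 10), residue 54 (10 and 9) and residue 55 (7 and 10). Residues 59 (10 and 6) and 77 (8 and 8) followed with equal totals. Residues 31, 66 and 57 led in both pools. The residues were ranked by clones of both pools together, so some that differ between them fall outside this list: residue 80 was replaced in 4 KO and 11 WT clones, residue 60 in 3 and 10, and residue 11 in 10 and 3, all 3 singled out after their values were seen. As background to all these counts, 94 of 269 KO clones and 93 of 181 WT clones had a cell with any V mutation. No test was made of single residues.

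**Figure D5:**
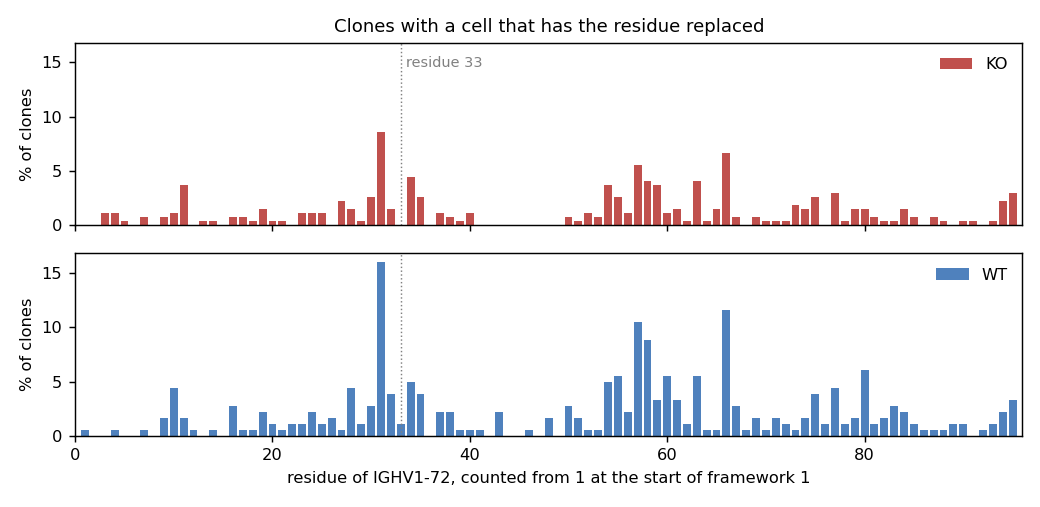
Percent of IGHV1-72 clones with at least 1 cell in which the residue is replaced, for each residue from 1 to 95, KO above WT; the dotted line marks residue 33. Residues 31, 57 and 66 stand highest in both pools, and residue 33 is at 0 in KO.

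The commonest single replacement was S31N, in 14 KO and 19 WT clones, followed by M34I (12 and 9), S66N (10 and 11) and S66T (9 and 7). The windows below show the germline around residue 33 and the base changes behind these replacements; capitals mark the changed base, and each window runs over 10 codons.
germline, residues 28 to 37: accttcaccagctactggatgcactgggtg
S31N: accttcaccaActactggatgcactgggtg
M34I: accttcaccagctactggatAcactgggtg
W33R: accttcaccagctacCggatgcactgggtg
S66N, residues 61 to 70: aatgagaagttcaagaAcaaggccacactg
S66T, residues 61 to 70: aatgagaagttcaagaCcaaggccacactg
Both serine codons are AGC, which holds 2 bases in the WRC or GYW context (W is A or T, R is A or G, Y is C or T), the preferred context of the mutating enzyme AID. The TGG codon of residue 33 holds 0. Over distinct mutations per clone, 204 of 278 mutations at C or G in KO (73.4%) and 238 of 336 in WT (70.8%) lay in that context, against 30.1% of the 153 C and G bases of the germline.

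Of the distinct mutations per clone, 329 of 436 in KO (75.5%) and 370 of 518 in WT (71.4%) changed the residue. By cells the replacement share was 75.8 ± 4.15% in KO and 73.2 ± 3.51% in WT (SD, n = 4 each; exact permutation p = 0.429). P75S, found in 7 KO and 5 WT clones, gives the residue that IGHV1-53, IGHV1-64 and IGHV1-55 have there.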

How the data were processed

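Per the file headers, each deposited contig table gives whole-number read and UMI counts without normalization, V, D, J and constant genes, and region sequences. Cell Ranger, R 4.3.1 and mm10 are named in the submitters' processing notes. Barcodes with exactly 1 heavy and 1 light contig were kept; 217 of 1404 IGHV1-72 contigs lay elsewhere, no doublet caller was run, and libraries shared 1 barcode, with different CDR3s. All 98 gene names used matched RefSeq (GRCm38.p6). Germlines were the commonest framework 1 to framework 3 sequence over at least 20 clones. Single values were tested over libraries by exact two-sided permutation (70 assignments) or, within libraries, sign flips (256), with Benjamini-Hochberg adjustment in families of 13, 4 and 6 and calls at 0.05. Cell counts per gene were tested with edgeR 4.0.16 (library sizes set to paired or IGHV1-72 cells; SE from the F statistic; R 4.3.3), tested on simulated data; DESeq2 1.42.0 was an alternative. Expanded-clone shares averaged 100 seeded draws of 86 cells. Python 3.11.15 was used with SciPy 1.17.1, pandas 2.3.3, NumPy 2.4.6 and matplotlib 3.10.9.

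Named genes were the 10 light V genes with most IGHV1-72 clones and the lambda V genes, all heavy J and constant genes, the 8 residues replaced in most clones with residues 33 and 59, the 5 largest clones of each pool, the 3 nearest genes by germline and by pattern, and the IGHV1 family. The gene, lists and tests were chosen with earlier results of these data known.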

Additional observations from a re-analysis of the deposited data

Results flagged for a closer look

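In 27 groups of 4 libraries, 6 values lay apart from the other 3 by Dixon's criterion, where chance gives about 1 in 20. The IGHV1-72 share was 3.97% in KO replicate 3. The switched share was 7.43% and the IGHG1 share 5.94% in KO replicate 1. In WT replicate 3 the IGHG1 share was 0 and the mean mutation frequency 0.326%. Residue 33 was replaced in 2.15% of cells in WT replicate 4, which is 2 cells.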

How the results depend on the processing

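The higher KO share of IGHV1-72 was called under all 19 alternatives, with log2 fold changes from 0.33 (each clone once per library) to 0.95 (without WT replicate 1). None of these alternatives counted a clone once per pool. The count of light V partners called between KO and WT moved from 14 to 2 with each clone counted once and to 3 with clones of identical CDR3, where 10 genes could be tested. The lambda deficit against other cells, -2.27 points, lost its call at -1.37 (each clone once) and -1.68 (identical CDR3). Uncalled differences changed sign as follows. IGHJ2, KO minus WT, became 0.0494 points by clones, 0.507 by identical CDR3 and 0.363 without the largest clones, and ranged from -3.35 to 0.420 with 1 library left out. YYGS became -4.17 without the largest clones, and the expanded-clone share -0.390 with identical CDR3. The KO minus WT contrast of IGHV1-72 against other cells became 0.128 and 0.137 points for switching by the 2 clone rules and -0.577 for the unmutated share by identical CDR3. The unmutated share against other cells became -1.17 by clones and -1.07 without the largest clones. Among partners, KO against WT, IGKV10-96 became -0.41 and -0.69 (largest clones out), IGKV8-30 -0.19 and -0.36 by the 2 clone rules, and IGKV6-15 0.14 with DESeq2 and -0.43 to 0.016 with 1 library left out (above 0 without KO replicate 1). Against other cells, IGKV17-127 became 0.40 and 0.29, IGLV2 0.13 and IGLV3 0.33 and 0.29 by the clone rules. The cause of these moves was not tested. Clones of identical CDR3, and leaving out the largest clones for the share and partner counts, were chosen after seeing the data. Same-numbered libraries were not alike in their deviations from the group mean (correlations from -0.17 to -0.08, against -0.25 to 0.32 for other KO and WT pairs). Such small deviations cannot show whether these libraries were processed together. With a replicate block the log2 fold change of the share was 0.90 and 11 of 21 partners were called, while the smallest exact p of the single values is then 0.125. The number of IGHV1-72 cells limits all shares, most in WT: 3 cells are 2.86 to 3.49%.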
